A study of Mus musculus with 6 samples.

Results

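The forkhead (Fox) genes encode transcription factors that share a winged-helix DNA-binding domain. Here 43 of them were described in control lung buds and in lung buds with floxed Hdac1 and Hdac2 alleles and a Cre recombinase directed to the epithelium. Members were the genes whose symbol in the platform annotation is Fox, a letter from a to s and a number, each read by a probe set (called a probe here) assigned to a single gene. The probe with the highest mean signal was taken where a gene had several. This gave 43 of the 19938 genes measured, through 45 probes, and only Foxf1 and Foxn3 had 2 probes.

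Gene expression was measured in whole lung buds of mouse embryos at E11.5 on Affymetrix MoGene 1.1 ST arrays, with 3 arrays per group. The 3 control samples carried the Shhcre allele alone. In the 3 DKO samples Shhcre was combined with floxed Hdac1 (Hdac1fl/fl) and floxed Hdac2 (Hdac2fl/fl), so Shhcre is common to both groups. The stated strain background of all 6 was mixed C57BL/6, 129X1 and 129S1. Shhcre places Cre recombinase under the control of the Sonic hedgehog locus, which in the lung bud is active in the epithelium, so recombination is directed to the epithelium while the arrays read epithelium, mesenchyme, vessels and blood together. In such whole-bud RNA, fewer cells of a type and less RNA per cell cannot be told apart. The series set out to find genes regulated by Hdac1 and Hdac2 in lung development.

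Forkhead factors mark the layers of the early lung. Foxa1 and Foxa2 open chromatin at endodermal genes and act together in branching and in the epithelial expression of Shh, while Foxf1 and Foxf2 are hedgehog-responsive factors of the mesenchyme. Foxp1, Foxp2 and Foxp4 are transcriptional repressors of the lung epithelium, Foxc1 and Foxc2 act in mesoderm and vessels, Foxm1 drives mitotic genes, Foxj1 drives motile cilia, and the Foxo factors act downstream of insulin and Akt signalling. The paralogous histone deacetylases Hdac1 and Hdac2 remove acetyl groups from histones inside corepressor complexes.

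The 250 bases upstream of the RefSeq start (assembly GRCm38.p6, 5′ to 3′ on the strand of the gene) are shown for Foxa1, Foxf2 and Foxa2, because these 3 members passed the threshold described below. Capitals mark letters that match 1 of 3 motifs on either strand: the forkhead core TGTTTAC, the CCAAT box CCAAT, and the GC box GGGCGG. The Foxa1 window is chr12:57546112-57546361 on the minus strand, the Foxf2 window is chr13:31625566-31625815 on the plus strand, and the Foxa2 window, upstream of the outermost of its 3 listed starts, is chr2:148046970-148047219 on the minus strand.
Foxa1: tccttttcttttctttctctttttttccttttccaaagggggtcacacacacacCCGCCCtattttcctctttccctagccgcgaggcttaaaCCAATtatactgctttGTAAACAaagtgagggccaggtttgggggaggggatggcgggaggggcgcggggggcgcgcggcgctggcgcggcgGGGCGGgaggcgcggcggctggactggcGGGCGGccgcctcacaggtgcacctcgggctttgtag
Foxf2: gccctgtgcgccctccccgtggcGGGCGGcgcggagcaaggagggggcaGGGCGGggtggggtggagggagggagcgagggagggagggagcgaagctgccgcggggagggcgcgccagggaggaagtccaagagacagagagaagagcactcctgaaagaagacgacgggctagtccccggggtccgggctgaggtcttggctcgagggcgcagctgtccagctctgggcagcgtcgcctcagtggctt
Foxa2: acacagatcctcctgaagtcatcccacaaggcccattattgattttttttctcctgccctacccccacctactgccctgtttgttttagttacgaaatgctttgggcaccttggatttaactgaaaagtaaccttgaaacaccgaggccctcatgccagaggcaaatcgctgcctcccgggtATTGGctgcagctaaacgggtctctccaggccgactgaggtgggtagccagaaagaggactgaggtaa
The Foxa1 window held 1 forkhead core, on the opposite strand 141 bases before the start, a CCAAT box 157 bases before it and 3 GC boxes, with 21 CpG dinucleotides and 62.0% G and C. The Foxf2 window held 2 GC boxes, 21 CpG and 71.6% G and C, and the Foxa2 window held 1 CCAAT box, 6 CpG and 50.8% G and C. The windows of the other 2 listed Foxa2 starts differed from it, with 13 and 20 CpG, 54.4% and 67.2% G and C, 1 and 2 GC boxes and no CCAAT box. No forkhead core letters were found in the Foxf2 window or in any of the 3 Foxa2 windows. The forkhead core was present in 3.17% of the 32851 windows of all genes in the table and in 1 of the 33 windows of Fox genes, that of Foxa1. GC boxes were present in 23 of the 33 Fox windows (69.7%) and in 32.7% of all windows, and CCAAT boxes in 14 (42.4%) against 33.8%. TATAAA was found in 3 Fox windows (9.09%) and in 12.4% of all. The 33 windows belong to 28 of the members, and their median was 16 CpG, against 6 over all windows. A match of letters is a description of these windows and not a binding site.

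Foxa1, Foxf2 and Foxa2 were lower in the DKO buds, and no forkhead gene was higher. Values are log2 RMA values, an expression scale on which 1 unit is a 2-fold difference. A change is the DKO mean minus the control mean, and its standard error (SE) comes from limma, a linear model that shares the spread across genes. The threshold was a p under 0.05 after Benjamini-Hochberg adjustment over all 19938 genes. The 3 lower members make up 6.98% of the family, beside 1.38% of all genes called lower. The count of members called higher was 0, beside 1.03% of all genes, and 0 were higher at an unadjusted p under 0.05, beside 6.00%. At an unadjusted p under 0.05, 7 members were lower (16.3%, beside 6.83% of all genes): the 3 above and Foxc1, Foxc2, Foxp2 and Foxp4. In 12 members (27.9%) all 3 DKO values lay below all 3 control values, beside 10.4% of all genes, and in 0 members did they all lie above, beside 8.36%. The median change over the 43 genes was -0.03, against 0.00 over all genes, and 26 of 43 changes were below 0 (60.5%, against 49.8% of all genes).

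**Figure D1:**
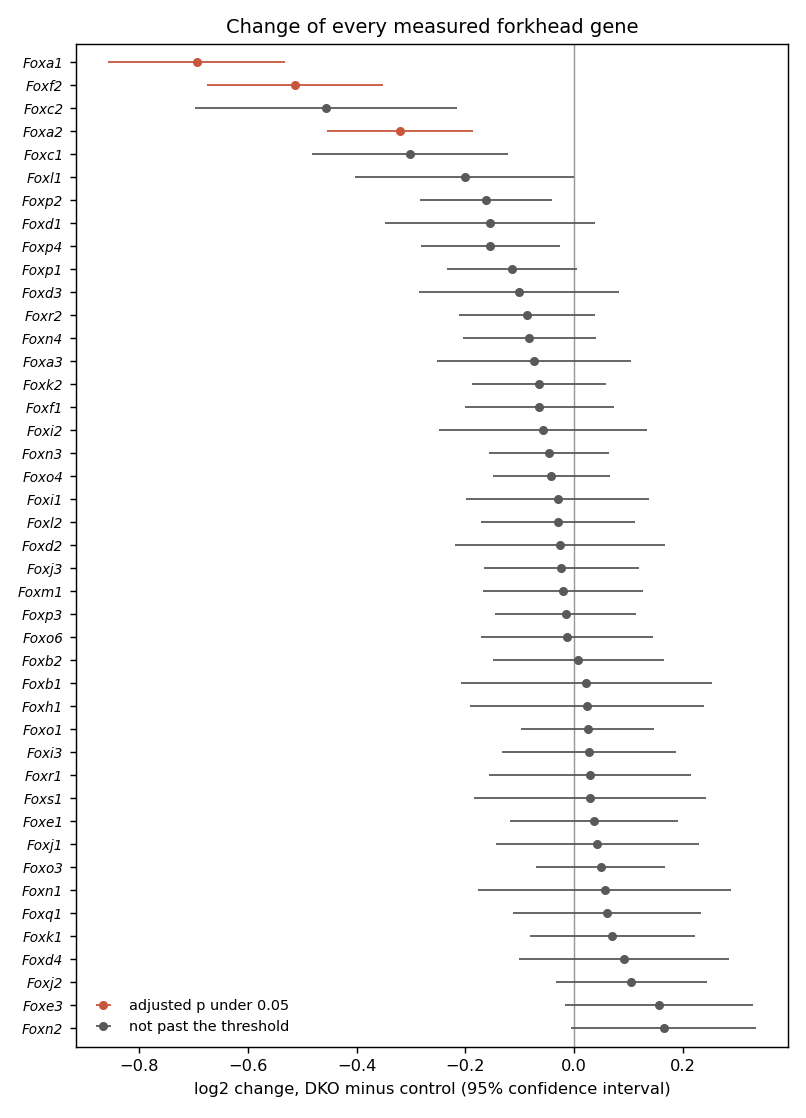
Change of each of the 43 forkhead genes, as the log2 value of DKO minus control, with bars showing the 95% confidence interval from limma (3 arrays per group). Foxa1 at -0.69, Foxf2 at -0.51 and Foxa2 at -0.32 passed the threshold; the other 40 lay between -0.46 and 0.17.

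The endodermal Foxa genes held the largest change of the family. The log2 level of Foxa1 (probe 10400504) was 10.54, 10.59 and 10.59 in controls 1 to 3 and 9.72, 9.99 and 9.93 in DKO 1 to 3. All DKO values lay below all controls by more than the spread within either group, and DKO 1 was the lowest. The means were 10.57 ± 0.02 (SD, n = 3) and 9.88 ± 0.14 (SD, n = 3), so Foxa1 fell 1.62-fold (change -0.69, SE 0.07, interval -0.86 to -0.53, limma adjusted p = 0.00184), the fall of rank 41 among all genes. The change was -0.75 to -0.61 when each array in turn was left out, and passed the threshold each time.

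Foxa2, its partner in the endoderm, also fell. Its log2 level (probe 10488374) was 8.74, 8.76 and 8.64 in the controls and 8.32, 8.38 and 8.47 in the DKO arrays, which did not overlap. The means were 8.71 ± 0.06 and 8.39 ± 0.07 (SD, n = 3 each), and the change was -0.32 (SE 0.06, interval -0.45 to -0.19, limma adjusted p = 0.0274). This call was lost in limma without control 1, 2 or 3 (adjusted p = 0.139, 0.141 and 0.0604) or DKO 1 (0.0743), with the replicate number as a block (0.0695) and with all probes tested together (0.107). Foxa3, which is best known from liver and gut, had values of 6.71, 6.68 and 6.75 in controls and 6.53, 6.82 and 6.57 in DKO. These overlapped, and its change was -0.07 (SE 0.08, interval -0.25 to 0.10, limma adjusted p = 0.801).

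Foxa1 was lower relative to Foxa2 in all 3 DKO arrays. The difference between the log2 values of 2 probes on 1 array has no meaning as a level, since probes differ in brightness, but its shift between groups gives the difference of the changes. Foxa1 minus Foxa2 was 1.81, 1.83 and 1.95 in controls and 1.40, 1.61 and 1.46 in DKO. These did not overlap, with a difference of changes of -0.37 (SE 0.08, exact two-sided permutation p = 0.1, adjusted p = 0.35 over 14 pairs of paralogs). For 3 arrays against 3, that is the smallest p the exact test can give, so it cannot pass 0.05. Foxa1 minus Foxa3 also separated the groups, with a difference of changes of -0.62 (SE 0.07, exact permutation p = 0.1), whereas Foxa2 minus Foxa3 overlapped at -0.25. The mean signal of Foxa3 was at percentile 23.6 of all genes and that of Foxa1 at percentile 85.0. The part of signal level in their difference was not tested. Of the 14 pairs 4 had separate groups, and the others ranged from -0.25 to 0.21 (Foxn2 minus Foxn3).

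**Figure D2:**
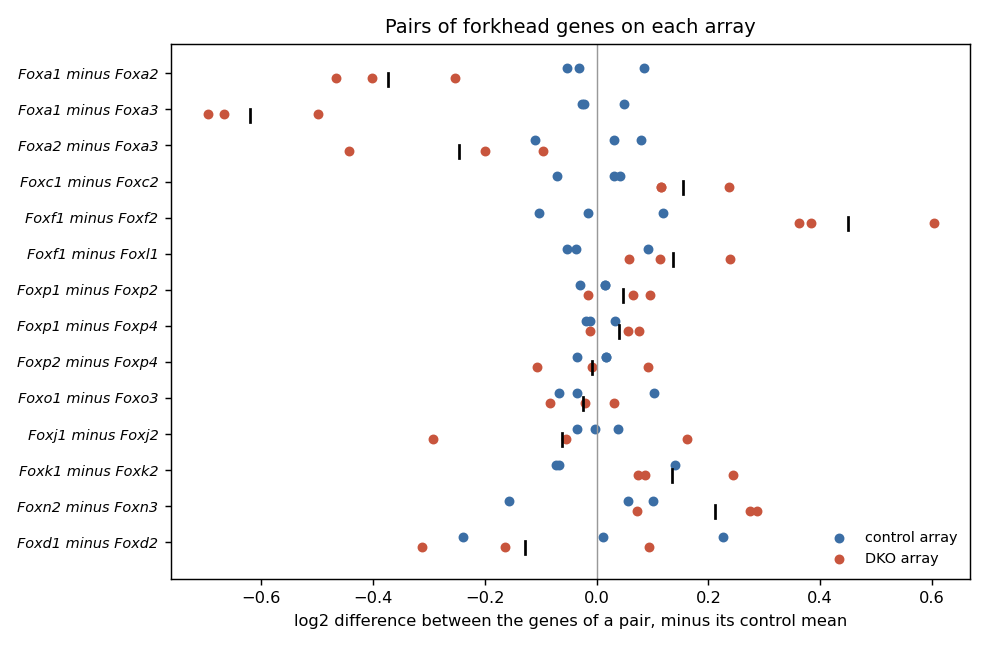
Log2 difference between the genes of 14 pairs on each array, minus the mean of that difference over the controls, with control and DKO arrays as points in 2 colours and the DKO mean as a black bar (3 arrays per group). The per-array differences did not overlap between the groups in 4 pairs: Foxa1 and Foxa2, Foxa1 and Foxa3, Foxc1 and Foxc2, Foxf1 and Foxf2.

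Part of the epithelial marker list was lower in the same DKO buds. Of 20 measured markers of lung epithelium, 8 fell and 0 rose, with a median change of -0.29. Those that fell included the keratin genes Krt18 (-0.86) and Krt8 (-0.56), the vesicle trafficking gene Rab25 (-0.89) and the adhesion gene Epcam (-0.50). Of the 12 that did not pass, the cadherin gene Cdh1 read -0.22 (limma adjusted p = 0.168) and the lung factor Nkx2-1 read -0.19 (limma adjusted p = 0.299), while Krt19 and Grhl1 each read 0.08. The summed linear level of the 20 ranged from 15260 to 16280 in controls and from 10870 to 12400 in DKO, and no marker value is 0 on this scale. The log2 value of Foxa1 minus the median of these markers was 0.20, 0.20 and 0.19 in controls and -0.24, -0.15 and -0.19 in DKO. Foxa1 was thus lower relative to the median epithelial marker by 0.39 (change -0.39, SE 0.03, groups separate, exact permutation p = 0.1). The adjusted permutation p was 0.133 over 8 such relations chosen after their values were seen. The change of Foxa1 itself, -0.69, lay within the range of the single markers, since Rab25 and Krt18 fell further. Foxa2 against the same marker median gave -0.01 (SE 0.06, exact permutation p = 0.6), with overlapping groups. The part of the lower epithelial signal in the fall of Foxa1 or of Foxa2 was not tested.

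Genes known as targets of Foxa factors in lung and endoderm moved in both directions. Of 21 measured, 7 lay above the median signal of all genes. In this list 4 fell and 2 rose, with a median change of 0.02. Those that fell were Sftpc, encoding surfactant protein C (-2.37, SE 0.18, limma adjusted p = 0.000354), the mucin Muc1 (-0.97, SE 0.08), the chloride channel Cftr (-0.79, SE 0.06) and the ligand Shh (-0.59, limma adjusted p = 0.00813). Those that rose were the liver plasma protein gene Alb (0.96, limma adjusted p = 0.0294) and the surfactant protein gene Sftpa1 (0.83, limma adjusted p = 0.0135). Neither rise passed the threshold when control 1, 2 or 3 was left out.

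In the mesenchymal Foxf group, Foxf2 was lower and Foxf1 was not past the threshold. The log2 level of Foxf2 (probe 10404404) was 9.48, 9.53 and 9.36 in controls and 8.92, 9.07 and 8.85 in DKO, with all DKO values below all controls. The means were 9.46 ± 0.09 and 8.94 ± 0.11 (SD, n = 3 each), a 1.43-fold fall (change -0.51, SE 0.07, interval -0.68 to -0.35, limma adjusted p = 0.00714). It was called without each array in turn, with limma adjusted p of 0.00163 to 0.0467. Foxf1 (probe 10576049) had values of 12.76, 12.71 and 12.77 in controls and 12.57, 12.74 and 12.74 in DKO, which overlapped, with a change of -0.06 (SE 0.06, interval -0.20 to 0.07, limma adjusted p = 0.771). The other Foxf1 probe read 12.10, 12.09 and 12.10 in controls and 11.84, 12.01 and 12.06 in DKO, a change of -0.13, with DKO 1 the lowest array on both probes.

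The change of Foxf1 lay above that of Foxf2 by 0.45 (SE 0.10, exact permutation p = 0.1, the smallest possible). Foxf1 minus Foxf2 was 3.27, 3.18 and 3.41 in controls and 3.65, 3.67 and 3.89 in DKO, so the groups separated. The mean signal of Foxf1 was at percentile 99.5 of all genes and that of Foxf2 at percentile 68.0. The 5th percentile of change was -0.12 for all genes at signal percentiles 90 to 100 and -0.21 at 60 to 70. The part of signal level in the difference between Foxf1 and Foxf2 was not tested. Foxl1, a forkhead gene of gut mesenchyme, read 8.01, 7.98 and 7.89 in controls and 7.54, 7.89 and 7.84 in DKO, so that its change was -0.20 (SE 0.09, interval -0.40 to 0.00, limma adjusted p = 0.390). DKO 1 alone lay well below the other arrays.

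Most smooth muscle markers were called lower in the same buds, a count that was smaller without any 1 of the controls, and 0 general mesenchyme markers were. Among 18 mesenchyme markers Meox2 alone passed (0.63); the list median was 0.00, with summed linear levels of 36300 to 37500 in controls and 36250 to 37790 in DKO. Among 9 smooth muscle markers 6 fell, among them the calponin gene Cnn1 (-0.63), the intermediate filament gene Des rose (0.32), and Smtn (-0.14) and Lmod1 (-0.16) did not pass; the list median was -0.44, with sums of 9391 to 10320 in controls and 6972 to 8106 in DKO. The count of lower smooth muscle markers was 2 without control 1, 0 without control 2 or 3, 3 without DKO 3 and 3 with the replicate block, and the Des call was lost when any single array other than DKO 2 was left out. Foxf2 was lower relative to the median mesenchyme marker by 0.50 (change -0.50, SE 0.08, groups separate, exact permutation p = 0.1) and its change relative to the median smooth muscle marker was -0.07 (SE 0.11, exact permutation p = 0.6, groups overlapping). The part of the lower smooth muscle signal in the fall of Foxf2 was not tested.

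Of 22 measured hedgehog pathway genes and Foxf targets, 4 fell and 0 rose, with a median change of -0.03. The 4 were the ligand Shh, the hedgehog antagonist Hhip (-0.58, limma adjusted p = 0.0240), the smooth muscle coactivator Myocd (-0.43, limma adjusted p = 0.0191) and the smooth muscle actin Acta2 (-0.44, limma adjusted p = 0.0308). Shh was already counted among the Foxa targets, and Myocd and Acta2 among the smooth muscle markers, so only Hhip adds to those counts. The count of 4 was 2 without control 1, 0 without control 2, 1 without control 3 and 2 without DKO 1. Among the pathway genes that did not pass, Gli1 read 0.07 (limma adjusted p = 0.830), Ptch1 read -0.15 (0.490) and Gli3 read 0.16 (0.155).

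**Figure D3:**
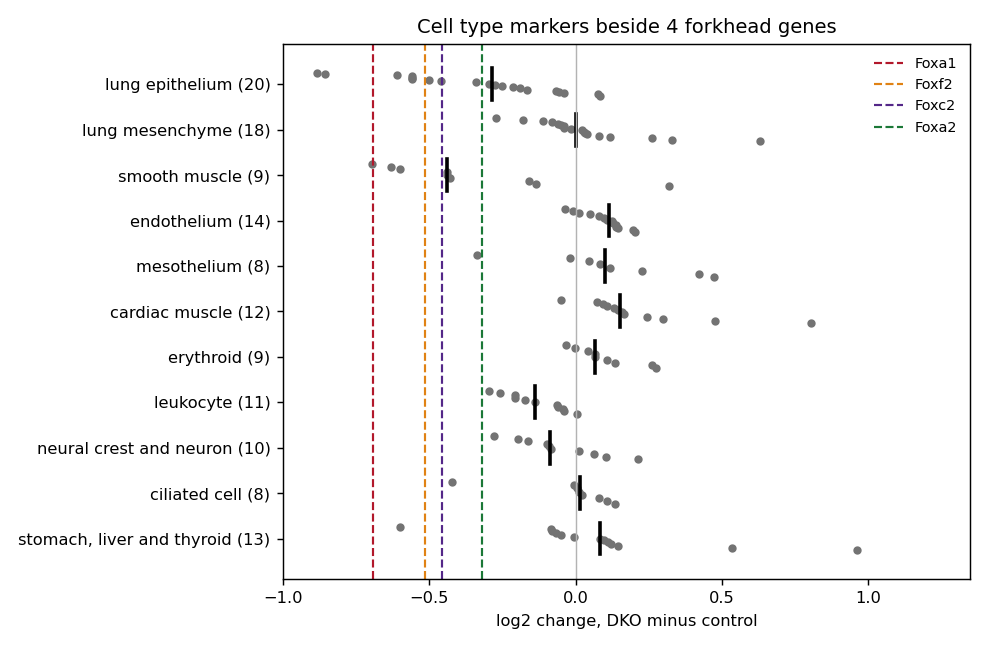
Changes of each marker of 11 cell-type lists as points, in log2 units of DKO minus control, with the list median as a bar and the number of measured markers in parentheses, and dashed lines at the changes of Foxa1, Foxf2, Foxa2 and Foxc2. The epithelial median is -0.29 and the smooth muscle median -0.44, while the mesenchyme median is 0.00 and the endothelium median 0.11.

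Foxc1 and Foxc2 had changes below 0 and did not pass the threshold, although the change of Foxc2 lay further below 0 than that of Foxa2. Foxc2 (probe 10576051) read 8.89, 8.80 and 8.62 in controls and 8.39, 8.08 and 8.47 in DKO, and its change was -0.46 (SE 0.11, interval -0.70 to -0.21, limma adjusted p = 0.0698). Foxc1 (probe 10404407) read 8.41, 8.42 and 8.26 in controls and 8.10, 7.91 and 8.18 in DKO, and its change was -0.30 (SE 0.08, interval -0.48 to -0.12, limma adjusted p = 0.109). In both genes the groups did not overlap and DKO 2 was the lowest array. Without DKO 2 the change of Foxc2 was -0.34 with limma adjusted p = 0.0461. Foxc2 also passed with an intensity trend (0.0285) and without the dimmest 30% (0.0467) or 50% (0.0307) of genes. It passed with array weights (-0.33, 0.0225), among which DKO 3 had by far the largest. Foxc2 did not pass with the replicate number as a block (limma adjusted p = 0.0956), robust eBayes settings (0.0739) or a further quantile normalization (0.0540). Foxc1 passed without the dimmest 50% (limma adjusted p = 0.0470) and did not with the block (0.175), an intensity trend (0.0719) or array weights (0.0529).

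No endothelium marker passed the threshold. Of the 14 such markers, 2 had an unadjusted limma p under 0.05, where 6.83% of all genes were lower and 6.00% higher. The median change of the 14 was 0.11. Their summed linear levels ran from 12030 to 12460 in controls and from 12660 to 14120 in DKO. Relative to the median endothelium marker, Foxc1 was lower by 0.40 (change -0.40, SE 0.12) and Foxc2 by 0.56 (change -0.56, SE 0.17), with separate groups (exact permutation p = 0.1 each, adjusted p = 0.133). Against the median mesenchyme marker the changes were smaller, -0.29 (SE 0.08) for Foxc1 and -0.45 (SE 0.12) for Foxc2. Those groups were separate too (exact permutation p = 0.1 each, adjusted p = 0.133). Of 24 Foxc-related vascular genes 0 passed, and 5 had an unadjusted p under 0.05; the lowest p-values were for the chemokine receptor Cxcr4 (-0.31, limma adjusted p = 0.0531), the integrin Itgb3 (0.26, limma adjusted p = 0.0709) and the angiopoietin receptor Tek (0.20). The change of Foxc1 lay above that of Foxc2 by 0.16 (SE 0.05, groups separate, exact permutation p = 0.1).

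All 4 Foxp genes had changes below 0, and 0 passed the threshold. Foxp2, in the distal epithelium, read 11.53, 11.49 and 11.48 in controls and 11.35, 11.27 and 11.40 in DKO, and its change was -0.16 (SE 0.05, interval -0.28 to -0.04, limma adjusted p = 0.213). Foxp4 read 10.81, 10.82 and 10.76 against 10.56, 10.67 and 10.70, a change of -0.15 (SE 0.06, limma adjusted p = 0.270), and Foxp1 read 11.23 in all 3 controls against 11.07, 11.09 and 11.19, a change of -0.11 (SE 0.05, interval -0.23 to 0.01, limma adjusted p = 0.419). None of the 3 genes had overlapping groups. The 3 pairs among them differed by -0.01 to 0.05 in change, with overlapping groups. Foxp3, the factor of regulatory T cells, had a change of -0.02. Of 19 Foxp partners and corepressors, Hdac1 alone fell and 0 rose, with 15 below 0, and the Foxp target Wnt7b read -0.31 (limma adjusted p = 0.0859). The Hdac1 call was lost when any single array other than DKO 2 was left out, and with the replicate block.

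Hdac1 itself, a targeted gene, read 11.48, 11.49 and 11.52 in controls and 11.20, 11.23 and 11.23 in DKO (change -0.28, SE 0.05, limma adjusted p = 0.0193). Hdac2 read 11.83, 11.69 and 11.81 against 11.74, 11.77 and 11.70, overlapping, with a change of -0.04 (limma adjusted p = 0.845). Whether either probe lies in the deleted part is not known, so neither value checks the genotype. The medians of the 6 arrays lay between 7.87 and 7.89, and the arrays correlated at 0.995 to 0.999. Scatter around the group mean was 0.0596 to 0.0645 in controls and 0.0705 to 0.105 in DKO.

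The other forkhead genes with a stated role in the lung or cell cycle did not pass. Foxm1 read 10.17, 10.16 and 10.05 in controls and 10.01, 10.20 and 10.11 in DKO (change -0.02), and of 20 mitotic target genes 0 passed, 1 having an unadjusted p under 0.05 (Ccnb2, 0.15). Foxj1 read 6.85, 6.66 and 6.71 against 6.64, 6.94 and 6.78 (change 0.04, SE 0.08); of 25 Foxj1 and cilia genes only the tubulin-associated gene Tppp3 fell (-0.42, limma adjusted p = 0.00790), and 3 of the 25 lay above the median signal of all genes. Without control 1 or 3 that call was lost. Foxo1 read 9.43, 9.47 and 9.49 against 9.42, 9.55 and 9.49 (change 0.03), and Foxo3 read 9.39, 9.40 and 9.28 against 9.40, 9.42 and 9.41 (change 0.05, SE 0.05). In the 4 Foxo genes the changes ran from -0.04 to 0.05. Of 31 Foxo kinases and targets 0 passed, with 3 at an unadjusted limma p under 0.05 (Txnip 0.21, Sod2 0.14, Akt2 -0.12). At that unadjusted p, 6.83% of all genes were lower and 6.00% higher.

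Outside these groups 0 members passed. By unadjusted p the next 5 members were Foxn2 (change 0.17, SE 0.08), Foxe3 (0.16, SE 0.08), Foxd1 (-0.15, SE 0.09), Foxj2 (0.11, SE 0.06) and Foxr2 (-0.09, SE 0.06), with limma adjusted p of 0.408 to 0.614. Foxn2 read 8.85, 9.04 and 8.99 in controls and 8.99, 9.21 and 9.17 in DKO, and Foxe3, a lens gene, read 8.46, 8.47 and 8.51 against 8.50, 8.61 and 8.80. Foxd1, a stromal gene, read 7.77, 7.49 and 7.64 against 7.36, 7.48 and 7.61, and Foxj2 read 9.61, 9.49 and 9.51 against 9.73, 9.56 and 9.62. Foxr2 read 5.99, 6.03 and 5.98 against 5.83, 5.97 and 5.94. Only Foxr2 of these 5 had groups that did not overlap. The remaining 23 members ranged from -0.10 for Foxd3 to 0.09 for Foxd4, with 12 below 0 and 0 passing. Of 18 genes related to Foxh1, Foxn and Foxk factors, Mef2c alone passed (0.30, limma adjusted p = 0.0283), and the call was lost with the replicate block and when any single array other than DKO 2 was left out.

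**Figure D4:**
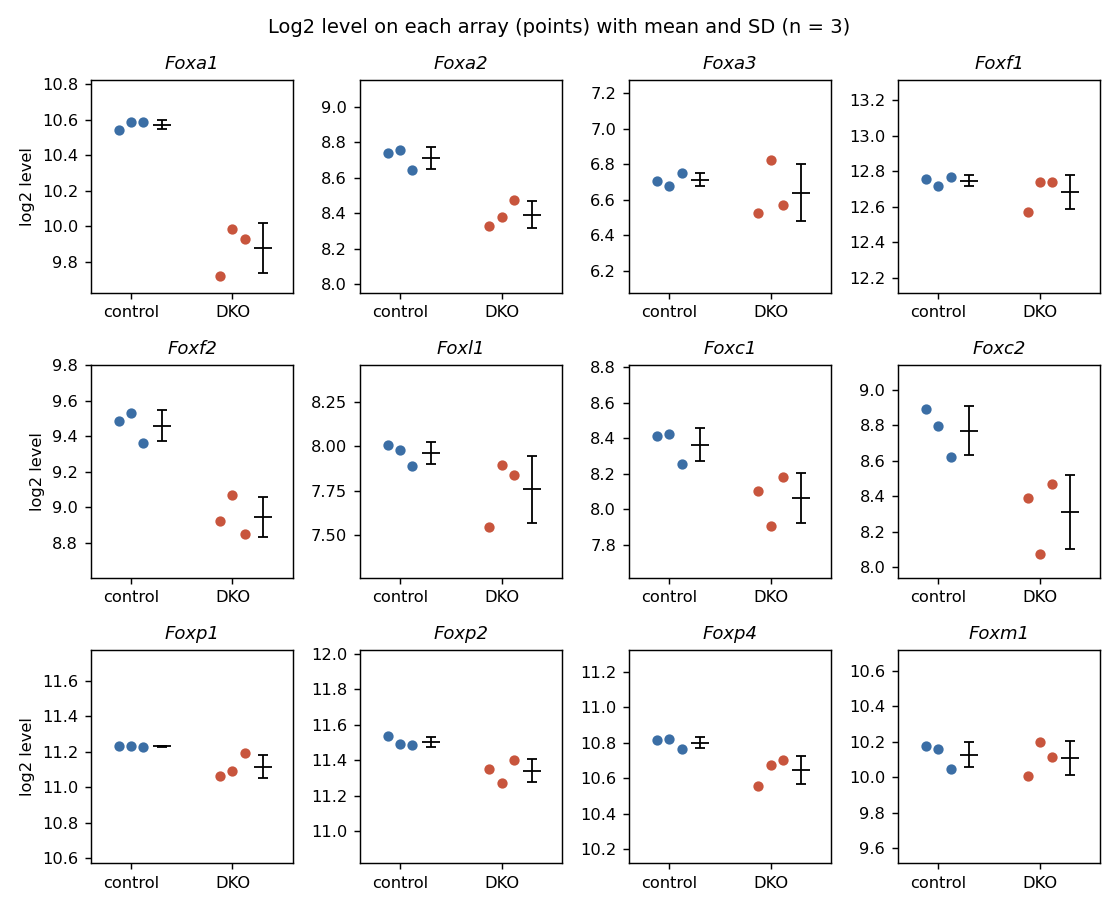
Log2 value of 12 forkhead genes on each array as points, control and DKO shown by colour, with mean and SD beside them (n = 3 per group); each panel spans the same log2 range. In Foxa1, Foxf2, Foxa2, Foxc1, Foxc2, Foxp1, Foxp2 and Foxp4 all 3 DKO points lie below all 3 control points. Of these, only Foxa1, Foxf2 and Foxa2 passed the threshold. Values are not to be compared between genes.

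All 3 called members had probes of above-median signal. Of 21 members above the median signal of all genes, 3 were called lower (14.3%, beside 1.59% of genes in that range), and in 10 the groups did not overlap with DKO lower (47.6%, beside 14.6%). Of the 22 members at or below it, 0 were called. DKO 2 was the highest of the 6 arrays for 16 of those 22 (72.7%, beside 47.2% of all genes in that range) and for 5 of the 21 brighter members (23.8%, beside 19.5%). Without DKO 2, 4 members were called lower, Foxc2 joining the 3.

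**Figure D5:**
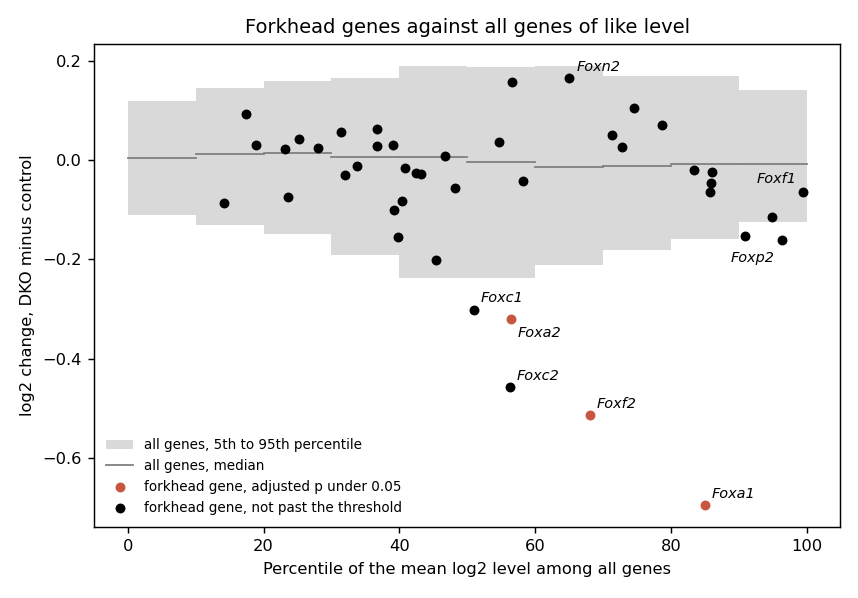
Change of each forkhead gene (log2, DKO minus control) against the percentile of its mean signal among all genes, with shading between the 5th and 95th percentile of all genes in bins of 10 percentiles. Foxa1, Foxf2, Foxa2, Foxc1, Foxc2, Foxp2 and Foxp4 lie below the shading, and no forkhead gene lies above it.

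Foxa1 lies between 2 genes that passed the threshold in opposite directions. In the order of the RefSeq table, the nearest measured genes on each side of Foxa1 were Slc25a21, a mitochondrial carrier, which rose (change 0.53, SE 0.07, limma adjusted p = 0.00556), and Ttc6, which fell (change -1.30, SE 0.08, limma adjusted p = 0.000169). Both were called without each array in turn. The next ones, Pax9 and Sstr1, had changes of 0.21 (limma adjusted p = 0.163) and 0.05. Around Foxf2 the neighbours were Foxq1 (0.06), 1700018A04Rik (-0.13), Foxc1 (-0.30) and Gmds (0.12), and around Foxa2 they were Pax1 (0.03), A530006G24Rik (-0.02), Sstr4 (0.10) and Thbd (0.29), with 0 of these 8 past the threshold.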

How the data were processed

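Total RNA of 6 lung bud samples was hybridised to 6 arrays, 1 per sample, and samples were grouped by their titles into 3 control and 3 DKO. They are labelled as biological replicates, without stating whether embryos were pooled, so a p-value reflects the spread among these samples, which may be partly technical. The deposited table holds 1 log2 value per probe and array; oligo, RMA and limma appear in the submitters' processing notes without settings. RMA corrects background, aligns the intensity distributions and summarises probes, so a change common to all genes cannot be seen. The log base was taken from RMA and from the range of the deposited log2 values, 3.42 to 14.27. Depth does not apply to arrays, and the number of arrays limits the precision.

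Probes were named from the platform annotation: 21789 of 35556 had 1 gene, 1621 had several and 12146 had none and were left out. The model was limma's lmFit and eBayes (version 3.58.1, R 4.3.3), two-sided with group as its term, with adjustment over 19938 genes. Scripts were tested on simulated data. Paralog and marker relations used exact permutation tests over the arrays. Promoter windows are RefSeq's, assembly GRCm38.p6. Members, lists, tests and the rule for named genes were chosen with earlier results of these data known, so their counts are descriptions and no list was tested. The rule gave per-array values for every member past the threshold, for a list of members with roles in lung, vessels, cilia, cell cycle and insulin signalling, and for the next 5 by p, list members by adjusted p, 2 measured neighbours per side and the 5 most alike genes.

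The alternatives tried were robust eBayes settings, an intensity trend, the replicate number as a block, array weights, a further quantile normalization, median centring, other probe choices, filters on dim genes and leaving out each array.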

Additional observations from a re-analysis of the deposited data

How the results depend on the processing

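The count of Fox genes called lower, 3, was 2 to 4 without each array in turn, 2 with the replicate number as a block, 4 with an intensity trend, with array weights and without the dimmest 30% of genes, 5 without the dimmest 50%, and 1 with all probes tested together. The count called higher, 0, was 1 with array weights (Foxe3, 0.28, limma adjusted p = 0.0203). The weights were 0.531, 0.275 and 4.09 for DKO 1 to 3 and 1.02 to 1.29 for the controls. Weighted results thus rest mainly on DKO 3 among the DKO arrays, and Foxe3 was highest on DKO 3. All genes called, 481, numbered 197 to 811 without each array, 725 with the trend, 2003 with array weights, 148 with all probes and 406 with the block. Foxa1 was called under every alternative run, and Foxf2 under all but all probes together (limma adjusted p = 0.0531). Paralog pairs with separate groups, 4, numbered 5 to 7 without each array. Leaving out an array cannot make separate groups overlap, so this count could only stay the same or rise. The changes of Foxm1 (-0.0667 to 0.0298), Foxj1 (-0.0319 to 0.115) and Foxo1 (-0.00683 to 0.0590) turned sign without 1 array, and the cause was not tested. The labels do not say whether the replicate numbers pair the samples. Deviations of same-numbered arrays correlated at -0.06, 0.05 and 0.16, and not every array correlated best with its own number. With 3 arrays per group such correlations cannot settle whether the samples are paired. Counts of list members were recomputed without each array and with the block as alternatives chosen after seeing the data. The 3 arrays per group limit what can be called.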

Other observations

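Genes whose values over the 6 arrays were most like those of a called forkhead gene were listed by the mean absolute difference of profiles centred on their own mean. For Foxa1 the 5 most alike were Runx1 (0.0366), Celsr1, Cftr, Tinag and Shh (0.0574). For Foxf2 they were Fgfr4 (0.0392), Cuedc1, Mcrip1, Cdcp1 and Lamb3 (0.0557), and for Foxa2 they were Pag1 (0.0206), Kank1, Tirap, Twist2 and Rtkn2 (0.0297). With 6 arrays in 2 groups such a list mainly gathers genes with a change of the same size.

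In the RefSeq order Foxf1, Mthfsd, Foxc2 and Foxl1 stand in a row, a cluster chosen after its values were seen. Their changes were -0.06, -0.09, -0.46 and -0.20, and 0 of the 4 passed the threshold. On the Foxf1 side the next genes, Irf8 and Cox4i1, had changes of -0.06 and -0.13, and on the Foxl1 side 1700018B08Rik had -0.03.

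Among markers of other cells, Upk1b (0.47) and Gpm6a (0.42) rose of 8 mesothelium markers (median 0.10), and the count was 1 without control 1, 2 or 3 or DKO 3 and 3 without DKO 2. Of 12 cardiac markers Myl7 rose (0.80; list median 0.15), and the count was 3 without DKO 2. Of 11 leukocyte, 9 erythroid and 10 neural crest and neuron markers 0 passed in limma (medians -0.14, 0.07 and -0.09). At an unadjusted limma p under 0.05 there were 5, 2 and 3, beside 6.83% of all genes lower and 6.00% higher. Of 8 ciliated cell markers Tppp3 fell (median 0.02). Of 13 stomach, liver and thyroid markers Tshr fell (-0.60) and Alb rose (0.96), with a median of 0.08; Tshr was not called without control 1, 2 or 3 or DKO 3, and Alb not without control 1, 2 or 3 or DKO 1.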
